A study of Mus musculus with 3 samples.

Results

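The miR-148/miR-152 family of the mouse consists of the hairpins Mir148a, Mir148b and Mir152. They were chosen by name, and their reads were taken from the alignments deposited for 3 small RNA libraries of MIN6 cells. The family makes up 3 of the 1005 mouse miRNA hairpins of the RefSeq table used here and 13 of the 12261 5′-starts that had at least 10 reads in every library. MIN6 cells are an established mouse beta cell line, obtained from an insulinoma of mice that carried a viral oncogene under the insulin promoter. The libraries are 3 biological replicates, all grown in DMEM with 25 mM glucose and serum, so the study holds 1 condition and no comparison between conditions was possible. All values below are therefore given per replicate or as mean ± SD, and differences between members were compared with the spread between replicates without a test. The libraries held 9269795, 10816006 and 10218743 mapped reads in replicates 1, 2 and 3. At these depths a count of 0 allows up to 3 reads, or 0.324 RPM (reads per 1000000 mapped reads) in the smallest library. The beta cell miRNA miR-375 was the most abundant 5′-start in all libraries, at 354247 ± 18597 RPM (SD, n = 3).

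A miRNA hairpin is cut by Drosha and Dicer into a duplex, and usually only the strand from 1 of its arms, 5p or 3p, stays in an Argonaute protein as the guide. The seed, positions 2 to 8 of the guide, pairs with target mRNAs, so that miRNAs with the same seed form a family, and a shifted 5′-start (an isomiR) changes the seed. The 3′-end can be shortened, or it can be extended by nucleotidyl transferases such as TUT4 and TUT7, which add uridines that the genome does not encode. The miR-148/miR-152 family is known for repressing the DNA methyltransferase Dnmt1, and in beta cells miR-148 has been linked to the control of insulin transcription.

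The mature sequences of the 3p arms are shown first because all 3 carry the same seed. They are RefSeq sequences (GRCm38.p6), written 5′ to 3′ with the seed in capitals.
miR-148a-3p: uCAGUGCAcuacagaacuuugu
miR-148b-3p: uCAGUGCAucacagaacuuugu
miR-152-3p: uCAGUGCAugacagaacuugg
Counted from the 5′-end, miR-148b-3p differs from miR-148a-3p by C9U and U10C, which leaves 20 of 22 positions identical. In miR-152-3p the substitutions relative to miR-148b-3p are C10G and U20G, with 19 of 21 positions identical. The last 12 bases of miR-148a-3p and miR-148b-3p, positions 11 to 22, are the same, and so are the 3 genome bases that follow them in the hairpins.

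The 5p arms differ more, and their sequences are shown with the seed in capitals because the shifted 5′-starts described below change it.
miR-148a-5p: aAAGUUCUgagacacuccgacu
miR-148b-5p: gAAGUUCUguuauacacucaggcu
miR-152-5p: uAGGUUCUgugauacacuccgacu
The seed AAGUUCU is shared by miR-148a-5p and miR-148b-5p, whereas that of miR-152-5p is AGGUUCU. Over 22 positions, 13 are identical between miR-148a-5p and miR-148b-5p and 12 between miR-148a-5p and miR-152-5p.

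On the mm9 positions of the alignments, miR-148a-3p occupied positions 51219828 to 51219849 on the minus strand of chromosome 6. For miR-148b-3p the positions were 103115616 to 103115637 on the plus strand of chromosome 15, and for miR-152-3p they were 96711753 to 96711773 on the plus strand of chromosome 11. In the GENCODE annotation of GRCm38, Mir148b lies in an intron of Copz1 and Mir152 in an intron of Copz2. Both host genes encode zeta subunits of the COPI vesicle coat, and both are on the strand of their miRNA. No other annotated gene overlapped Mir148a. Among 71, 18 and 130 5′-starts tested on the respective chromosome and strand, only these positions were compatible with the Mir148a, Mir148b and Mir152 hairpins. At 53, 53 and 49 positions of these hairpins at least 1 read carried a mismatching base, and none of the mismatching bases was the base of the hairpin.

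The 3p arm was the major arm of every member, and its level followed the order miR-148a, miR-148b, miR-152. The level of miR-148a-3p was 15795, 14400.1 and 14305 RPM in replicates 1, 2 and 3, with a mean of 14833 ± 834 RPM (SD, n = 3). It was the 8th most abundant 5′-start in every library. For miR-148b-3p the values were 2965, 2667 and 2409 RPM, with a mean of 2680.0 ± 278 RPM (SD, n = 3). In miR-152-3p they were 217, 213 and 203 RPM, with a mean of 211 ± 7.49 RPM (SD, n = 3). The ranges of the members did not overlap, and the lowest replicate of miR-148a-3p lay above the highest of miR-148b-3p by far more than the spread between replicates. Within a library, miR-148a-3p was 5.33-, 5.40- and 5.94-fold above miR-148b-3p, and miR-148b-3p was 13.6-, 12.5- and 11.9-fold above miR-152-3p. Here and below, different miRNAs and arms are compared by their reads alone. Whether their sequences entered the libraries equally well was not tested, and the SD between replicates does not measure it. Because the seeds at the reference starts are identical, the 3p arms can also be read as a pool of 17724 ± 1100 RPM (SD, n = 3). Of this pool, miR-148a-3p made up 83.7% ± 0.741, miR-148b-3p 15.1% ± 0.750 and miR-152-3p 1.19% ± 0.0447. The pool includes the reads at shifted starts, described below, which have another seed. All arms of the family together amounted to 1.80% ± 0.112 (SD, n = 3) of the mapped reads.

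**Figure D1:**
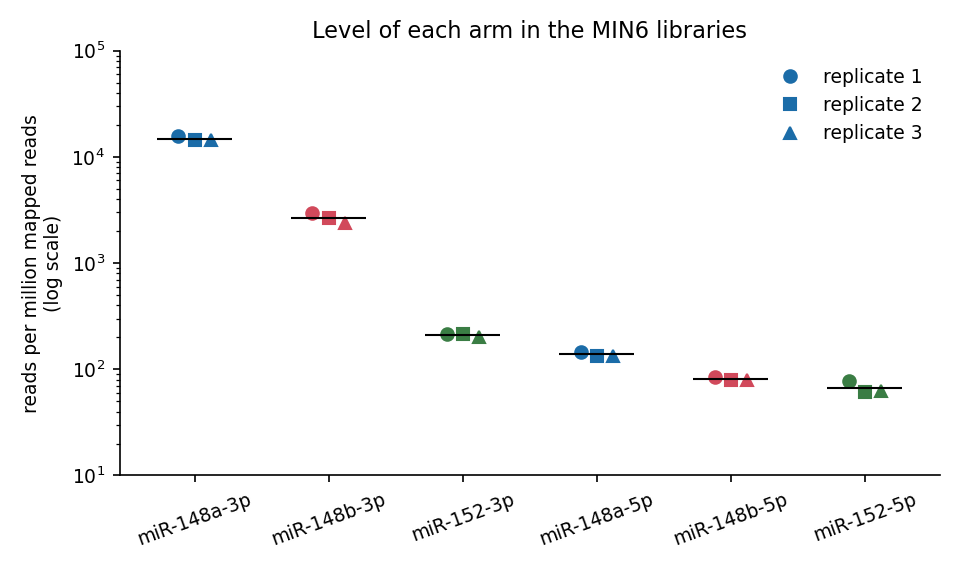
Level (RPM, log axis) of each arm of the miR-148/miR-152 family in the 3 MIN6 libraries; symbols are replicates, colors are members and the line is the mean. The 3p arms span 14833 to 211 RPM on average, while the 5p arms lie between 138 and 66.9 RPM.

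The 5p arms were far closer to each other in level than the 3p arms. The 3p arms are called guides below for their higher read number alone, since binding to Argonaute was not measured. The levels of miR-148a-5p were 147, 133 and 135 RPM, with a mean of 138 ± 7.67 RPM (SD, n = 3). For miR-148b-5p they were 84.9, 79.4 and 78.7 RPM, with a mean of 81.0 ± 3.40 RPM (SD, n = 3). In miR-152-5p they were 78.1, 60.6 and 62.1 RPM, with a mean of 66.9 ± 9.70 RPM (SD, n = 3). Thus miR-148a-5p exceeded miR-148b-5p by 1.71-fold ± 0.0302, and all replicates of the former were above all replicates of the latter. The ratio of miR-148b-5p to miR-152-5p was 1.09, 1.31 and 1.27, and the highest value of miR-152-5p, 78.1 RPM in replicate 1, lay just below the lowest value of miR-148b-5p, 78.7 RPM in replicate 3. These levels rest on 1362 to 1436 reads for miR-148a-5p, 787 to 859 for miR-148b-5p and 635 to 724 for miR-152-5p.

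As a result, the arm ratio differed widely within the family. The 3p arm held 99.1% ± 0.00988 (SD, n = 3) of the reads of both arms of Mir148a and 97.1% ± 0.195 of those of Mir148b. At Mir152 it held 73.6%, 77.9% and 76.5%, with a mean of 76.0% ± 2.21 (SD, n = 3). Expressed as a ratio, the 3p arm was 107-fold ± 1.16 above the 5p arm at Mir148a, 33.0-fold ± 2.204 at Mir148b and 3.19-fold ± 0.375 at Mir152. The ranges over the replicates were separate for all 3 hairpins. Very few reads began elsewhere in the hairpins, with 21.8 to 27.2 reads per library at Mir148a and at most 5 at Mir148b and Mir152.

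Among the 183 miRNAs of the study that could be placed by name in the alignments, those closest in level to the reference start of miR-148a-3p were miR-191-5p, at 19982 ± 1383 RPM, and miR-30d-5p, at 12259 ± 1404 RPM (SD, n = 3). The next were miR-22-3p, at 23141 ± 1111 RPM, and miR-30e-5p, at 9341 ± 839.8 RPM, and none of these 4 overlapped with miR-148a-3p over the replicates. The neighbors of miR-148b-3p in this order were miR-340-5p and let-7b-5p above and miR-26b-5p and miR-301a-3p below, at 1.13, 1.008, 0.981 and 0.902 times its mean. The ranges of all 4 overlapped with that of miR-148b-3p. Within each library, however, miR-340-5p was above miR-148b-3p, at 3445, 2854 and 2788 RPM against 2963, 2664 and 2406 RPM at the reference start, whereas the other 3 changed sides between libraries. The neighbors of miR-152-3p were also overlapping and changed sides between libraries, with miR-361-5p and miR-384-5p above and miR-341-3p and miR-7a-2-5p below, between 0.964 and 1.011 times its mean.

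The 5′-start of the guide, and with it the seed, was nearly invariant in miR-148a-3p and miR-148b-3p. At miR-148a-3p, 99.8% ± 0.00906 (SD, n = 3) of the reads of the arm began at the reference start. The isomiR that begins 1 base downstream, miR-148a-3p+1, had 139, 125 and 119 reads, and miR-148a-3p-1, which begins 1 base upstream, had 74, 69 and 69. A start 2 bases downstream, miR-148a-3p+2, had 27, 28 and 27 reads. At miR-148b-3p the reference start held 99.9% ± 0.0146 (SD, n = 3), and no other start reached 10 reads in every library. In miR-152-3p the share was lower, at 95.6% ± 0.311 (SD, n = 3), because miR-152-3p-1 held 4.17%, 3.99% and 4.58% of the arm. The 95% Wilson intervals of these shares ran from 3.26% to 5.57% over the libraries. Without molecular identifiers in the reads, all such intervals and floors describe counting error alone. The isomiR is shown with its seed in capitals because that seed, UCAGUGC, is no longer the one of the family.
miR-152-3p-1: gUCAGUGCaugacagaacuugg
The same seed is formed by miR-148a-3p-1, which held only 0.0473% ± 0.00312 (SD, n = 3) of its arm. As a level, miR-152-3p-1 reached 8.95 ± 0.406 RPM and miR-148a-3p-1 reached 7.04 ± 0.839 RPM (SD, n = 3), although the arms to which they belong differed 70.3-fold.

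The 5p arms began less precisely, and each had 1 shifted start with at least 10 reads in every library. At miR-152-5p the shifted isomiR miR-152-5p+1 had 294, 269 and 245 reads, compared with 429, 385 and 390 at the reference start. It thus held 40.6%, 41.1% and 38.6% of the arm, with 95% Wilson intervals from 34.9% to 44.9% over the libraries. At miR-148b-5p, miR-148b-5p+1 held 12.5% ± 1.03 of the arm, and at miR-148a-5p, miR-148a-5p-1 held 7.42% ± 0.786 (SD, n = 3). The direction of the shift was downstream in miR-148b-5p and miR-152-5p and upstream in miR-148a-5p. The shifted forms are given with their seeds in capitals because all of these seeds differ from the reference.
miR-148a-5p-1: cAAAGUUCugagacacuccgacu
miR-148b-5p+1: aAGUUCUGuuauacacucaggcu
miR-152-5p+1: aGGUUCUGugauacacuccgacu
In the Mir152 hairpin a shifted start was present on both arms, but in opposite directions. Mir148a also had shifted starts on both arms, upstream on the 5p arm and in both directions on the 3p arm.

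**Figure D2:**
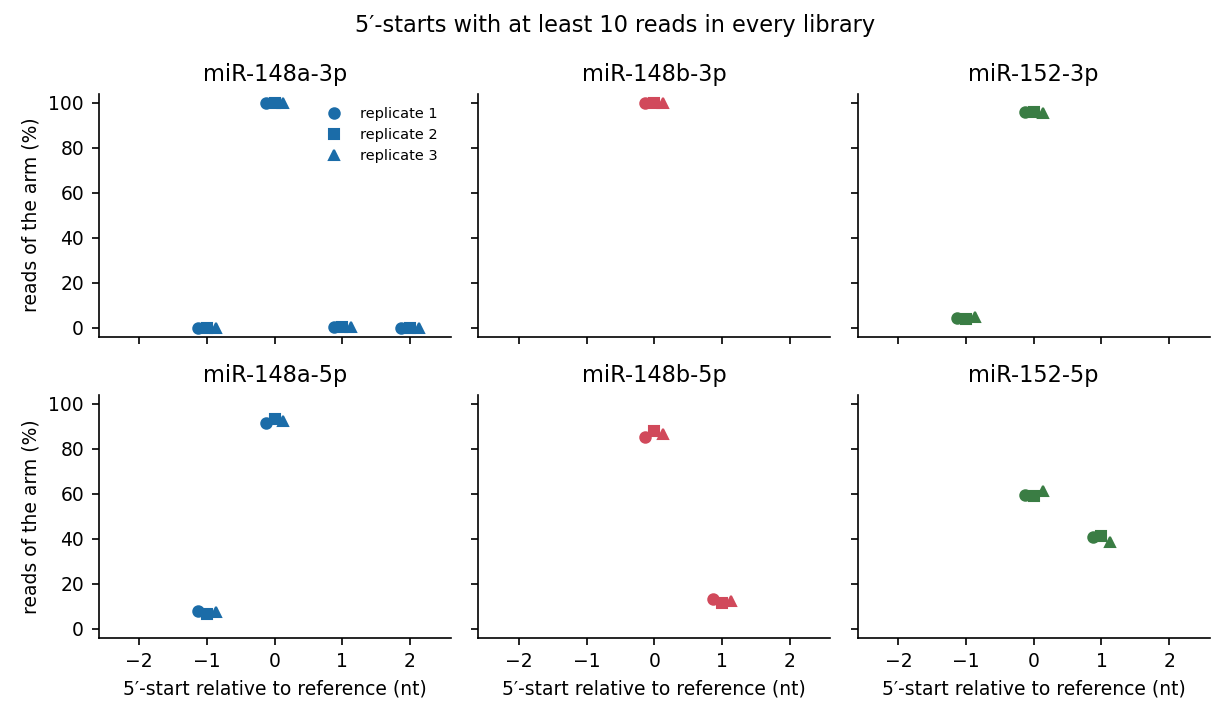
Share of the reads of each arm (%) by 5′-start, in nt relative to the reference start (negative is upstream), for starts with at least 10 reads in every library; symbols are replicates. The reference start holds at least 95.3% of every 3p arm, while miR-152-5p is divided between the reference start and a start 1 nt downstream with 38.6% to 41.1%.

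The length of the guide distinguished the members clearly. Reads at the reference start of miR-148a-3p were mainly 22 nt long, at 57.9%, 55.0% and 55.2% in replicates 1, 2 and 3, followed by 23 nt with 34.5% ± 1.55 (SD, n = 3) and 24 nt with 8.66% ± 0.0775. For miR-148b-3p the order was the reverse, since 24 nt reads made up 63.7%, 64.8% and 65.5%, 23 nt reads 19.7% ± 0.361 and 22 nt reads only 10.3% ± 0.943 (SD, n = 3). The reads of miR-152-3p were spread over 21 nt with 32.3% ± 1.33, 22 nt with 27.4% ± 0.536 and 23 nt with 26.7% ± 1.67 (SD, n = 3). A further 3.35% ± 0.301 of the miR-152-3p reads were 18 nt long, more than the 0.379% ± 0.0782 of 20 nt. Among reads without any mismatch, the share of 22 nt was 59.1% for miR-148a-3p, 85.7% for miR-148b-3p and 11.3% for miR-152-3p. At this length miR-148b-3p then exceeded miR-148a-3p. The mature form of miR-152-3p is 21 nt long, so that 22 nt lies past its end. Of the miR-152-3p reads of 21 nt, 82.8% had no mismatch, compared with 14.5% of those of 22 nt. The mean length over all reads was 22.519, 23.628 and 21.995 nt for miR-148a-3p, miR-148b-3p and miR-152-3p, with an SD of at most 0.0401 nt. Over all 388 5′-starts with at least 1000 reads in every library, the median share of 24 nt reads was 0.146%, and 12 starts exceeded miR-148b-3p. These starts were not limited to miRNAs. The 5p arms were uniform in comparison, with 98.6% ± 0.922 of miR-152-5p and 79.1% ± 0.364 of miR-148b-5p at 24 nt and 93.8% ± 0.827 of miR-148a-5p at 22 nt.

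**Figure D3:**
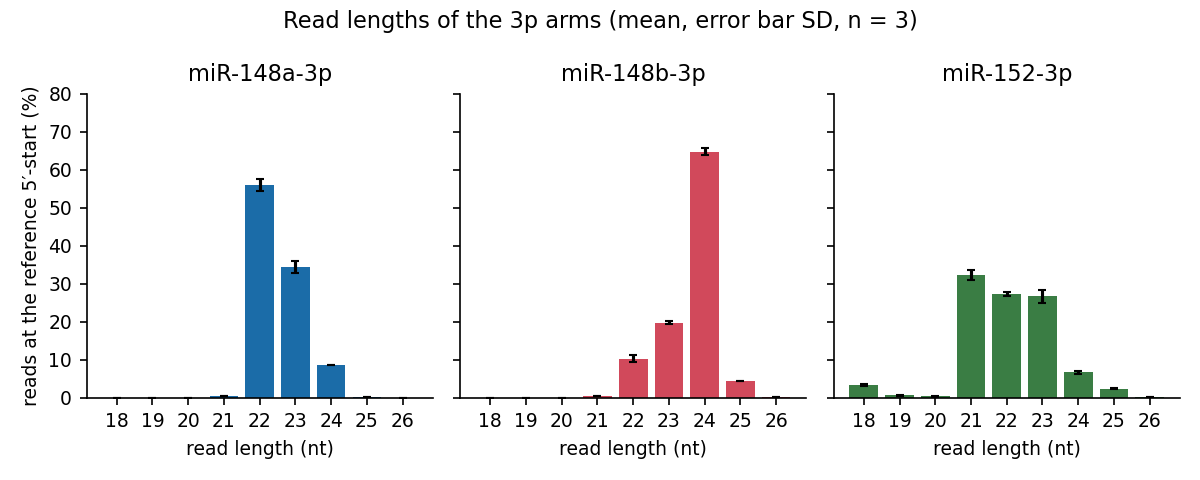
Read length (nt) against the share of the reads at the reference 5′-start (%) for the 3p arms; bars are means and error bars SD over 3 libraries. The main length is 22 nt for miR-148a-3p, 24 nt for miR-148b-3p and 21 nt for miR-152-3p.

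The longer reads differed in the bases that they carried. Of the miR-148a-3p reads, 43.4% ± 1.54 (SD, n = 3) were longer than the mature form, and 87.7% of these carried the next genome bases, mainly C or CU. In contrast, 89.1% ± 0.925 of the miR-148b-3p reads were longer than the mature form, but 95.6% ± 0.223 of these ended in uridines only and 1.29% in genome bases. The most abundant forms are shown with the bases past the mature end in capitals because these ends separate both miRNAs.
miR-148a-3p with C: ucagugcacuacagaacuuuguC
miR-148a-3p with CU: ucagugcacuacagaacuuuguCU
miR-148b-3p with U: ucagugcaucacagaacuuuguU
miR-148b-3p with UU: ucagugcaucacagaacuuuguUU
The form with UU alone held 61.6%, 62.9% and 63.4% of all miR-148b-3p reads at the reference start, and the form with U held 18.4%, 17.8% and 18.3%. The corresponding forms of miR-148a-3p held 2.00% ± 0.0669 and 2.03% ± 0.0526 (SD, n = 3), and no replicate of either miRNA came near the other. The form with UUU made up 4.18% ± 0.0546 of the miR-148b-3p reads and 0.116% ± 0.0132 of the miR-148a-3p reads. The form with UU was 3.45-fold ± 0.0969 as abundant as the form with U in miR-148b-3p, 0.988-fold ± 0.0472 in miR-148a-3p and 0.738-fold ± 0.0490 in miR-152-3p (SD, n = 3). As an absolute level, reads extended by uridines only reached 2278 ± 217 RPM in miR-148b-3p, 614 ± 23.04 RPM in miR-148a-3p and 54.3 ± 4.28 RPM in miR-152-3p. These levels leave out reads in which a genome base precedes the uridine, such as those with CU.

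Read by position, the reads of miR-148b-3p differed from the genome at both cytidines that follow its mature end. The substitution C23U was carried by 97.6%, 97.6% and 97.3% of the reads that covered position 23 in replicates 1, 2 and 3. At position 25, C25U was carried by 95.6% ± 0.230 (SD, n = 3) of the 1144 to 1358 reads that covered it. In miR-148a-3p, where the genome has the same bases, C23U was carried by 9.95% ± 0.153 of the reads covering position 23 and C25U by 84.7% ± 1.62 of the 386 to 455 reads covering position 25. The mismatches are relative to the reference sequence, since the genome of MIN6 itself was not analysed here.

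miR-152-3p carried a mixture of added bases. Of its reads, 63.3% ± 1.53 (SD, n = 3) were longer than the mature form, and only 5.004% ± 0.445 of all reads were extended by genome bases alone. Uridines only were added in 27.3%, 27.7% and 25.5% of the reads, and adenines only in 8.40%, 8.28% and 8.97%. A further 6.93% ± 0.0326 carried genomic bases followed by adenines, and 4.75% ± 0.390 carried genomic bases followed by uridines. The remaining longer reads, 11.2% ± 0.679 of all, carried other bases, most often U followed by A at 4.67% ± 0.147. Examples are shown with the bases past the mature end in capitals because both U and A follow the same end. The G of the last form is the genome base at position 22.
miR-152-3p with U: ucagugcaugacagaacuuggU
miR-152-3p with UU: ucagugcaugacagaacuuggUU
miR-152-3p with A: ucagugcaugacagaacuuggA
miR-152-3p with GA: ucagugcaugacagaacuuggGA
These forms held 13.5% ± 0.285, 10.0% ± 0.864, 7.40% ± 0.434 and 6.28% ± 0.0509 of the reads at the reference start (SD, n = 3). Adenines only were rare in the other members, at 0.381% ± 0.0213 of the miR-148a-3p reads and 0.643% ± 0.0666 of the miR-148b-3p reads. The 5p arms were hardly extended, since 0.183% ± 0.124 of miR-148a-5p, 1.84% ± 0.150 of miR-148b-5p and 0.0866% ± 0.150 of miR-152-5p reads were longer than the mature form. Of the 12, 13 and 14 longer reads of miR-148b-5p in replicates 1, 2 and 3, those extended by uridines only were 8, 11 and 13.

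**Figure D4:**
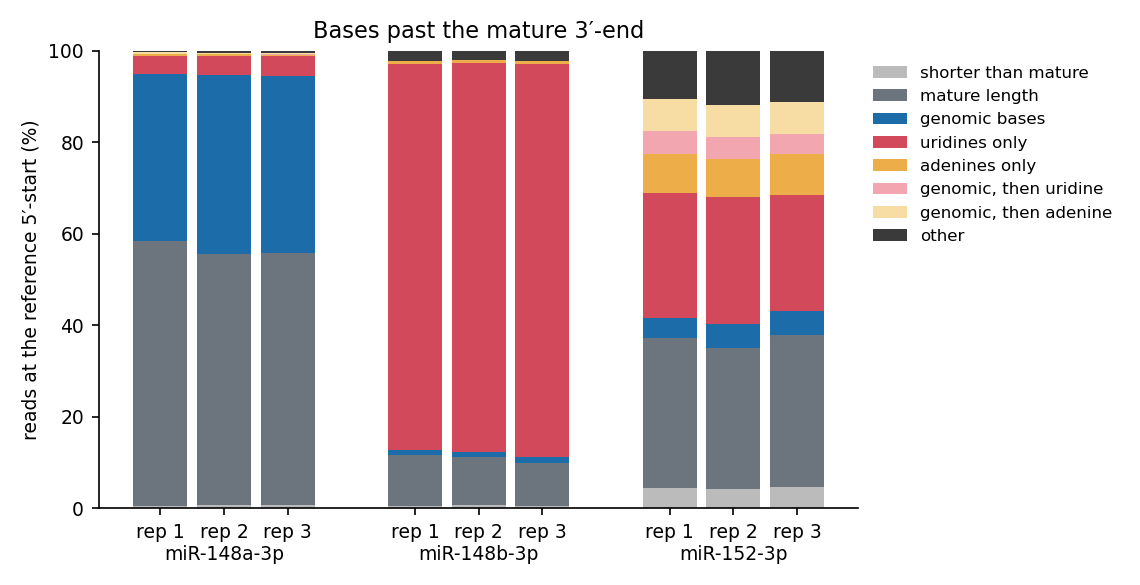
Share of the reads at the reference 5′-start (%) of each 3p arm by the bases past the mature 3′-end, with 1 bar per library. Genome bases prevail among the longer reads of miR-148a-3p, uridines make up 84.4% to 85.9% of all miR-148b-3p reads, and miR-152-3p carries uridines, adenines and mixed ends.

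How the 3′-end is counted affects these miRNAs unequally. When only a mismatch at the last base of the read was counted as an addition, its share was 3.50% ± 0.136 for miR-148a-3p, 25.1% ± 0.411 for miR-148b-3p and 58.8% ± 1.37 for miR-152-3p (SD, n = 3). When a mismatch at any of the last 3 bases was counted, the shares were 5.68% ± 0.154, 88.0% ± 0.803 and 60.0% ± 1.28. The order of miR-148b-3p and miR-152-3p was therefore exchanged. The genome base at position 24 of miR-148b-3p is U, so that a read ending in UU mismatches at its next-to-last base and matches at its last. The 388 5′-starts with at least 1000 reads in every library were not limited to miRNAs. Their median share with a mismatch at the last base was 2.81%, and 41 starts exceeded miR-148b-3p and 9 exceeded miR-152-3p. With the last 3 bases the median was 4.76%, and 15 starts exceeded miR-148b-3p, 22 exceeded miR-152-3p and 171 exceeded miR-148a-3p. Of the bases mismatching at the last position, U made up 90.6% ± 0.362 in miR-148b-3p, 64.2% ± 0.426 in miR-148a-3p and 60.3% ± 1.74 in miR-152-3p, where A made up 36.3% ± 1.58.

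Consequently the members also differed in how many reads matched the genome without any mismatch. This share was 82.6% ± 0.141 for the miR-148a-3p arm, 36.4% ± 0.662 for miR-152-3p and 10.4% ± 0.742 for miR-148b-3p (SD, n = 3). Counting exact reads alone lowered miR-148b-3p from 2680.0 to 279 RPM and miR-152-3p from 211 to 76.9 RPM, but miR-148a-3p only from 14833 to 12256 RPM. The order of the members remained the same in these means. At Mir152 the 3p arm then held 58.4% of the reads of both arms and at Mir148b 81.6%.

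Within the body of the guide, mismatches were concentrated at position 11 and had the same size in all members. The substitution A11C was carried by 9.30% ± 0.116 of the miR-148a-3p reads, 9.19% ± 0.190 of the miR-148b-3p reads and 8.87% ± 1.11 of the miR-152-3p reads (SD, n = 3). The differences between members were within the spread of miR-152-3p. This mismatch was not particular to the family, since the 19 placed miRNAs with an A at position 11 and at least 1000 reads in every library, members included, carried it at a median of 7.85%, with a range from 3.59% to 10.2%. On the 5p arms, A12C was carried by 14.1% ± 1.23 of miR-148a-5p, 13.02% ± 0.363 of miR-148b-5p and 17.98% ± 1.98 of miR-152-5p, compared with a range from 12.8% to 22.7% over 20 placed miRNAs with an A at that position. Within the seed the most frequent mismatch of the guides was C7A, at 1.03% ± 0.0815 in miR-148a-3p, 1.03% ± 0.0508 in miR-148b-3p and 1.26% ± 0.477 in miR-152-3p. The 20 placed miRNAs with a C at this position carried it at 0.211% to 2.15%.

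**Figure D5:**
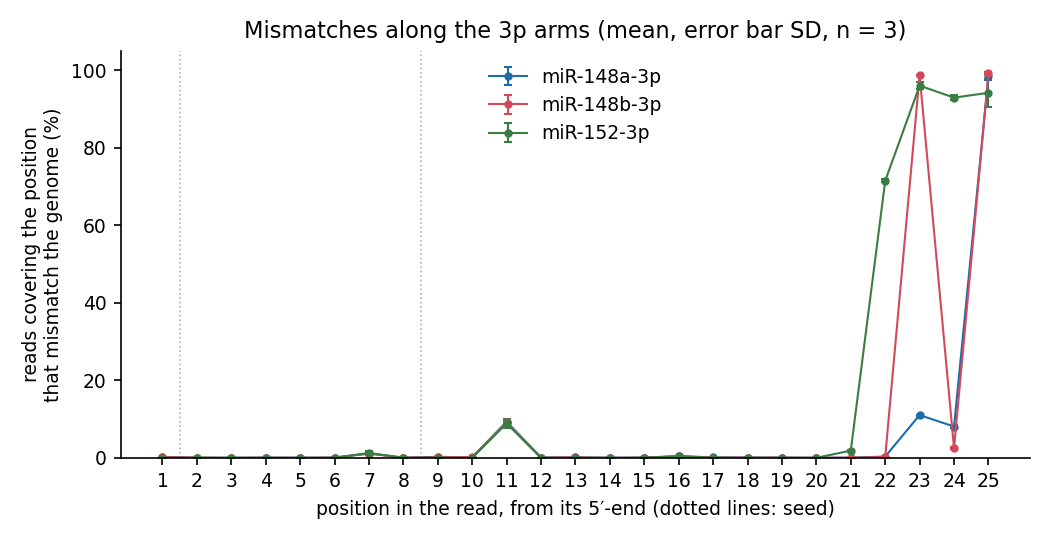
Share of the reads covering each read position that mismatch the genome there (%), for the reads at the reference 5′-start of each 3p arm, with mean and SD over 3 libraries. All members share a peak at position 11 of 8.87% to 9.30%, and they separate mainly past position 21, where fewer reads reach each further position.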

How the data were processed

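Small RNA of 3 MIN6 replicates was prepared with the TruSeq kit and sequenced on the HiSeq. Each deposited value is an expected count: the number of reads with a given alignment to mm9, after reads that fit several loci equally had been split over these loci by the authors. Per the methods, reads were trimmed with cutAdapt and aligned exactly with Bowtie. The remaining reads were aligned with mismatches to windows around exact matches with SHRiMP. An extended read could therefore be found only where an exact read lay nearby. Allowed were 1 mismatch in the body and, depending on read length, up to 3 at the 3′-end. Whether this limit affected long additions differently between the members was not tested. Alignments here were 14 to 41 nt long.

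The deposited counts were summed with pandas 2.3.3 and numpy 2.4.6 under Python 3.11.15, with intervals from scipy 1.17.1 and plots from matplotlib 3.10.9, and divided by all mapped reads (RPM). Alignments marked exact end 1 base early, and this was corrected. An arm comprised starts within 5 nt of its reference start. Hairpins were placed by sequence, at a conflict of at most 0.1% and at least 20 informative positions, both thresholds chosen after seeing the data. Other names were placed where the reads matched the study's table within 0.2% in all libraries. For 183 of 200 names this was possible, and the markers miR-143-3p, miR-122-5p and miR-142-3p were not placed. The counting was tested on simulated data.

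The named miRNAs are the members with their 5′-starts of at least 10 reads in every library, the 2 placed names above and below each 3p arm in mean RPM, and miR-375. The members and this list were chosen with earlier results of these data known, and the classes of added bases were chosen after seeing the data. With 1 condition, samples were not tested against each other. Depth was 9269795 to 10816006 mapped reads. Alternatives were exact reads, whole-number values, reads of 18 to 25 nt, the last 3 bases, mapped reads of 16 to 27 nt as denominator, and leaving out each replicate.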

Additional observations from a re-analysis of the deposited data

How the results depend on the processing

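For each member, 5 values of the 3p arm were recomputed: its level, its share of both arms, the share at the reference start, the share with a mismatch at the last base and the share of 22 nt. Whole-number values only and reads of 18 to 25 nt only moved none of the 15 values by more than 1 SD. Leaving out 1 of 3 replicates cannot move a mean by 1 SD, so this alternative could not show a change. Whole-number values already made up 99.99%, 99.92% and 99.92% of the 3p reads of Mir148a, Mir148b and Mir152 on average, which left little room for a change. A whole-number value can also arise from divided reads. Restriction to exact reads moved 11 of 12 values, the exception being the share at the reference start of Mir148b. For Mir148a, Mir148b and Mir152, the level became 12256, 279 and 76.9 RPM, the share of both arms 99.2%, 81.6% and 58.4%, and the share of 22 nt 59.1%, 85.7% and 11.3%. The share at the reference start became 99.9% for Mir148a and 92.1% for Mir152. With the last 3 bases, the share with a mismatch was 5.68% for Mir148a and 88.0% for Mir148b. Relative to mapped reads of 16 to 27 nt, the levels were 16885, 3050.3 and 240.3 RPM. No paired analysis was possible because there was 1 group of samples, and members were compared within each library by their ratios, without a test.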
